A study of Mus musculus with 2 samples.

Results

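The genes described here are 10 chaperones, folding enzymes and stress factors of the endoplasmic reticulum (ER), the compartment in which secreted and membrane proteins are folded. They are Hspa5, Hyou1, Dnajb11, Sdf2l1, Hsp90b1, Calr, Pdia4, Pdia6, Manf and Creld2, and each was found by its gene name among 55536 annotated genes. The group was selected on a measured difference, since its TPM was higher in replicate 1 than in replicate 2. The ratios between the libraries are therefore a description of these 10 genes, with no test, and support nothing on their own.

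The study sequenced total RNA of heart tissue in 1 group of 2 libraries, replicates 1 and 2. Both came from adult female mice of the strain B6CASTF1/J, the F1 hybrid of C57BL/6J and CAST/EiJ, at an age of 18 to 20 months, with no treatment or genetic change given in the labels. Each library started from 300 ng of RNA, and the labels list ERCC spike-ins, synthetic RNAs of known amount, of the kind meant for stranded libraries with reduced ribosomal RNA. The labels give the libraries separate biosamples and the same donor entry, so the spread between them may be technical, and the alleles of the parental strains are not separated in the tables used.

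When unfolded protein builds up in the ER lumen, the sensors IRE1 (gene Ern1), PERK (Eif2ak3) and ATF6 start the unfolded protein response. IRE1 splices the mRNA of the transcription factor XBP1, ATF6 is cut to release a transcription factor, and PERK slows translation while ATF4 is made. ATF6 and XBP1 act on stress elements in the promoters of ER chaperone genes, and in heart muscle the same membrane system also stores the calcium that drives contraction, which several of these chaperones bind.

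The best known of these promoter elements is the ER stress element (ERSE), CCAAT and CCACG separated by 9 bases, which is bound by the factor NF-Y and by ATF6 or XBP1. A shorter form, ERSE-II, is ATTGG and CCACG separated by 1 base. Promoter windows from 250 bases before to 50 bases after the RefSeq start site (build GRCm38.p6, the mm10 assembly) were found for 8 of the 10 genes, and not for Manf and Hyou1. The ERSE was in the windows of 5 of the 8 genes, Hspa5, Hsp90b1, Calr, Pdia6 and Creld2, and Dnajb11 had an ERSE-II. The matches do not use the ratio between the libraries. The genes were chosen by name as ER chaperones and stress factors, in whose promoters such elements are known. The matches are therefore a description and no independent finding. Each line gives the gene's strand from 5′ to 3′ with 4 bases on either side, and capitals mark the element's outer parts, which read CGTGG and ATTGG where the element lies in reverse.
Hspa5, chr2:34772021-34772047, + strand: ttcaCCAATcggaggcctCCACGacgg
Hsp90b1 first element, chr10:86705634-86705660, - strand: aagcCCAATcgcaaggagCCACGcttc
Hsp90b1 second element, chr10:86705529-86705555, - strand: agtgCGTGGtgaggcacgATTGGtgag
Calr, chr8:84847071-84847097, - strand: aacgCGTGGtcgaccctcATTGGccca
Pdia6, chr12:17266487-17266513, + strand: gagaCCAATgaaaggcggCCACGgcgt
Creld2, chr15:88819516-88819542, + strand: ttctCGTGGcgagcctcaATTGGtcca
Dnajb11 ERSE-II, chr16:22857848-22857866, + strand: ggcgATTGGcCCACGcctg

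The ERSE was found on either strand in 39 of 32851 promoter windows of the same length, or 0.119%, and in 14 of 8879 nuclear protein-coding genes with a mean level of 1 TPM or more, or 0.158%. An ERSE-II was found in 0.0365% of windows and 0.0901% of those genes. Another motif searched, the core TGACGTGG of the unfolded protein response element, was in 0.676% of windows and 1.09% of those genes, and in 0 of the 8 genes' windows. The letters CCACG alone, which the ERSE and the ERSE-II contain, were in the windows of all 8 genes but also in 32.8% of all windows and 52.5% of expressed genes. Sdf2l1 had 3 CCACG matches and Pdia4 had 1, with no longer element in either window. GC content of the 8 windows ran from 60.3% to 70.0%, beside a median of 61.0% for 11452 windows of expressed nuclear protein-coding genes.

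**Figure D1:**
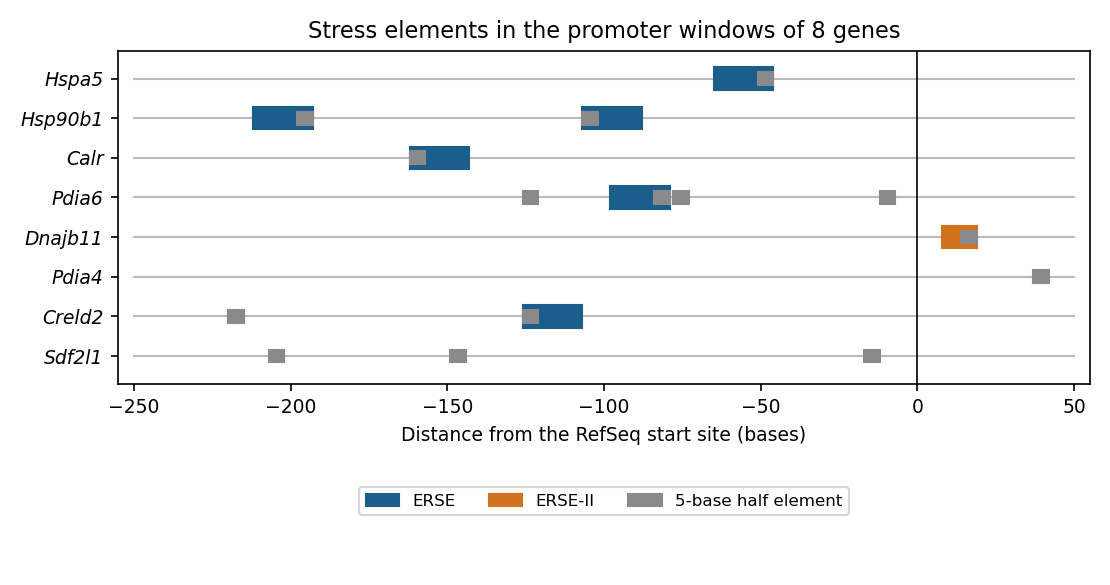
Promoter windows of the 8 genes found in the RefSeq promoter set used, drawn by distance in bases from the RefSeq start site, with ERSE, ERSE-II and the shared 5-base part as coloured blocks. The ERSE blocks lie upstream of the start site in Hspa5, Hsp90b1, Calr, Pdia6 and Creld2, with 2 of them in Hsp90b1, and the ERSE-II block of Dnajb11 lies downstream of it.

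Positions of the elements differed between the genes. Counted from the RefSeq start site, the ERSE began 65 bases before it in Hspa5, 98 in Pdia6, 126 in Creld2, 162 in Calr, and 212 and 107 in Hsp90b1, while the ERSE-II of Dnajb11 ran from base 8 to base 18 after it. A different annotation moves these distances, since the GENCODE gene start lay 120 bases upstream of the RefSeq start for Hspa5, 65 for Hsp90b1, 44 for Pdia6 and 3 for Calr, and 82 bases downstream for Pdia4.

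The 10 mRNAs were abundant to moderate in the heart and spanned a wide range. Levels are given in TPM, a relative abundance per transcript length that allows genes to be compared, from the authors' gene table in the column layout of RSEM. A second table of the authors, in the column layout of kallisto, was summed per gene as a second estimate from the same reads. By mean level, Hspa5 ranked 181 among nuclear protein-coding genes and Sdf2l1, the lowest of the 10, ranked 5348. The 10 genes together held 1056 TPM in replicate 1 against 596 TPM in replicate 2, which was 0.255% and 0.149% of the TPM of nuclear protein-coding genes. The summed TPM was 1.77 times higher in replicate 1, and 1.67 times higher in the kallisto-layout table.

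Hspa5 encodes BiP, the HSP70 chaperone of the ER lumen, which binds unfolded chains and also holds the stress sensors inactive. The gene lies on chr2:34771970-34777547 (mm10) and had 421 TPM from 26807 expected counts in replicate 1 and 219 TPM from 14503 in replicate 2, a mean of 320 ± 143 TPM (SD, n = 2). It was the highest of the 10 genes in both libraries and in both tables, and alone made up 39.9% of their summed TPM in replicate 1 and 36.7% in replicate 2. Its log2 ratio, replicate 2 over replicate 1 on the scale of log2(TPM + 0.1), was -0.94. In CPM, counts scaled to equal library totals, it was 1.90-fold higher in replicate 1, with an exact 95% interval of 1.86 to 1.94. Such an interval reflects counting error alone and leaves out the variation between samples and libraries. It is too narrow even for counting error where several reads stem from 1 molecule.

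Hyou1 encodes a large HSP70-related protein that helps BiP release its nucleotide. The gene lies on chr9:44379490-44392369 and had 39.1 TPM from 4056 counts in replicate 1 and 18.1 TPM from 2184 in replicate 2 (28.6 ± 14.9 TPM, SD, n = 2). Its log2 ratio of -1.11 was lower than that of Hspa5, and the CPM were 1.91-fold higher in replicate 1 (1.81 to 2.01). The fold in CPM was thus nearly that of Hspa5. The fold in TPM, 2.16, was larger for Hyou1, whose mean transcript length was estimated at 3811 nt for replicate 1 and at 4195 nt for replicate 2.

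The remaining partners of BiP were less abundant. Dnajb11 encodes an ER J-domain protein, which brings substrates to BiP; the gene lies on chr16:22857845-22879634 and had 25.9 TPM from 1299 counts in replicate 1 and 18.3 TPM from 982 in replicate 2 (22.1 ± 5.32 TPM, SD, n = 2). Its log2 ratio was -0.49 and its fold in CPM 1.36 (1.25 to 1.48), among the smaller ones of the 10. Sdf2l1, whose protein works with ER J-domain proteins, lies on chr16:17130138-17132383 and had 13.4 TPM from 377 counts in replicate 1 and 5.36 TPM from 159 in replicate 2 (9.37 ± 5.67 TPM, SD, n = 2). Its log2 ratio was -1.30 and its fold in CPM 2.44, with an interval of 2.02 to 2.95 that was wide because the counts were low.

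Hsp90b1 encodes the HSP90 chaperone of the ER, which matures receptors such as integrins and Toll-like receptors. The gene lies on chr10:86690209-86705509 and had 192 TPM from 14114 counts in replicate 1 and 124 TPM from 9635 in replicate 2 (158 ± 47.8 TPM, SD, n = 2). Its log2 ratio was -0.63 and its fold in CPM 1.51 (1.47 to 1.55), which put it close to the 1.5-fold line. In the kallisto-layout table it had 193 and 132 TPM and fell below that line, with a log2 ratio of -0.55.

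Calr encodes calreticulin, a lectin chaperone that folds glycoproteins and buffers ER calcium. The gene lies on chr8:84841850-84846934 and had 165 TPM from 9394 counts in replicate 1 and 116 TPM from 6976 in replicate 2 (140 ± 34.8 TPM, SD, n = 2). Its log2 ratio was -0.51 and its fold in CPM 1.39 (1.34 to 1.43). The order of Calr and Hsp90b1 depended on the table: Hsp90b1 was higher in both libraries of the RSEM-layout table, and Calr was higher in both libraries of the kallisto-layout table, with 204 and 152 TPM.

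Pdia6 and Pdia4 encode protein disulfide isomerases, which form and rearrange disulfide bonds. Pdia6, on chr12:17266545-17284770, had 48.2 TPM from 2722 counts in replicate 1 and 34.8 TPM from 2047 in replicate 2 (41.5 ± 9.52 TPM, SD, n = 2), with a log2 ratio of -0.47 and a fold in CPM of 1.37 (1.29 to 1.45). Pdia4, on chr6:47796141-47813430, had 20.6 TPM from 1320 counts in replicate 1 and 14.9 TPM from 1011 in replicate 2 (17.7 ± 3.97 TPM, SD, n = 2), with a log2 ratio of -0.46 and a fold in CPM of 1.34 (1.24 to 1.46). By log2 ratio the isomerases had the smallest differences of the 10 genes, and their intervals overlapped each other and those of Dnajb11.

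Manf and Creld2 encode small proteins of the ER that can also be secreted under stress. Manf, on chr9:106838312-106891979, had 119 TPM from 2340 counts in replicate 1 and 38.9 TPM from 814 in replicate 2 (78.8 ± 56.4 TPM, SD, n = 2). Its log2 ratio of -1.61 was the lowest of the 10 genes and its fold in CPM was 2.96 (2.73 to 3.21), an interval that overlapped only that of Sdf2l1 among the 10. Creld2, on chr15:88819646-88826683, had 12.3 TPM from 434 counts in replicate 1 and 7.62 TPM from 284 in replicate 2 (9.95 ± 3.29 TPM, SD, n = 2), with a log2 ratio of -0.68 and a fold in CPM of 1.57 (1.35 to 1.83).

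**Figure D2:**
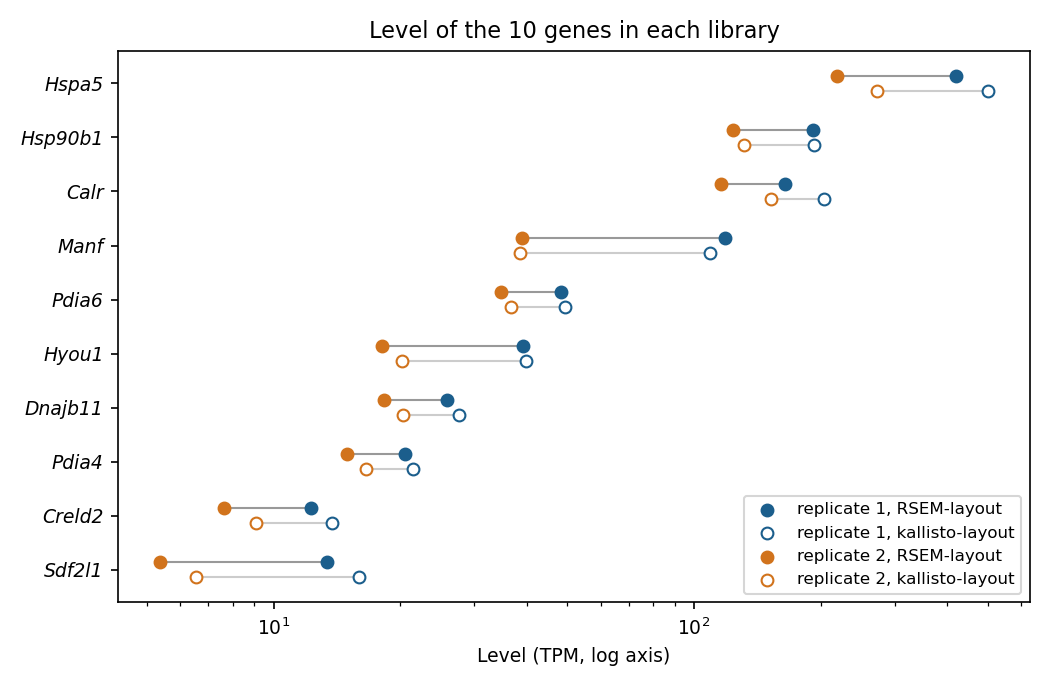
Level of each of the 10 genes in TPM on a log axis, with filled points for the RSEM-layout table, open points for the kallisto-layout table, and a line joining replicates 1 and 2. Replicate 1 lies to the right of replicate 2 for every gene in both tables, from Hspa5 at 421 and 219 TPM to Sdf2l1 at 13.4 and 5.36 TPM in the RSEM-layout table.

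The order of the levels was nearly the same in both libraries. Hspa5, Hsp90b1, Calr, Manf and Pdia6 held ranks 1 to 5 in each library, and Pdia4 held rank 8. Hyou1 and Dnajb11 exchanged ranks 6 and 7, and Sdf2l1 and Creld2 exchanged ranks 9 and 10. In the RSEM-layout table the highest gene, Hspa5, was apart from the next gene, Hsp90b1, in both libraries (421 against 192 TPM and 219 against 124 TPM), but its lower library, at 219 TPM, was near the higher library of Hsp90b1. Within the spread of the libraries Hsp90b1 and Calr overlapped, as did Calr and Manf, and Manf in turn overlapped Pdia6. Below them Pdia6, Hyou1, Dnajb11 and Pdia4 overlapped each with the next, Pdia4 lay above Creld2 in every library, and Creld2 and Sdf2l1 overlapped.

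The proportions between the 10 mRNAs differed between the libraries. Relative to Hspa5 in the same library, a measure free of library scaling, Hsp90b1 went from 0.455 in replicate 1 to 0.566 in replicate 2, Calr from 0.391 to 0.529 and Pdia6 from 0.115 to 0.159. Manf went the other way, from 0.282 to 0.178, and Hyou1 changed less, from 0.0929 to 0.0828. The genes closest to BiP in abundance and the isomerases thus made up more of the group's TPM in replicate 2, and Manf made up 11.2% in replicate 1 and 6.52% in replicate 2.

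All 10 genes passed the filter of a mean of 1 TPM or more, which 12510 genes passed in all. Of the 10, 6 were 1.5-fold or more higher in replicate 1 on the log2(TPM + 0.1) scale, namely Hspa5, Hsp90b1, Manf, Sdf2l1, Creld2 and Hyou1. Over all 12510 genes 418 were, or 3.34%, and 927 were 1.5-fold or more higher in replicate 2, or 7.41%. At 2-fold the count was 3 of the 10, Manf, Sdf2l1 and Hyou1, beside 0.919% of all genes. It was 2 of the 10 in the kallisto-layout table, beside 106 of 12719 genes. There Hyou1 had a log2 ratio of -0.97, and its fold in CPM was 1.91. Of the 10 genes, 5 passed 1.5-fold in the kallisto-layout table, beside 2.94% of 12719 genes higher in replicate 1 and 10.4% higher in replicate 2. Nothing is read from the 10 genes' counts against these shares, because the genes were chosen on this difference.

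The median log2 ratio of the 10 genes was -0.65, and -0.57 in the kallisto-layout table, beside 0.023 and 0.090 over all genes tested. The middle 50% of 11341 nuclear protein-coding genes lay between -0.13 and 0.20, and each of the 10 genes was below that range. Counted from the lowest ratio, Manf was 12 of these 11341 genes, Sdf2l1 26, Hyou1 49, Hspa5 85, and Pdia4, the last of the 10, 545. The direction held for each of the 10 genes under the 9 settings of table, scaling and pseudocount that were run, with a log2 ratio from -1.64 to -1.50 for Manf and from -0.51 to -0.37 for Pdia4. The settings use the same reads of genes chosen for this direction, so these ranges and ranks add no support. In bulk tissue, fewer cells of a type and less RNA per cell cannot be told apart.

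**Figure D3:**
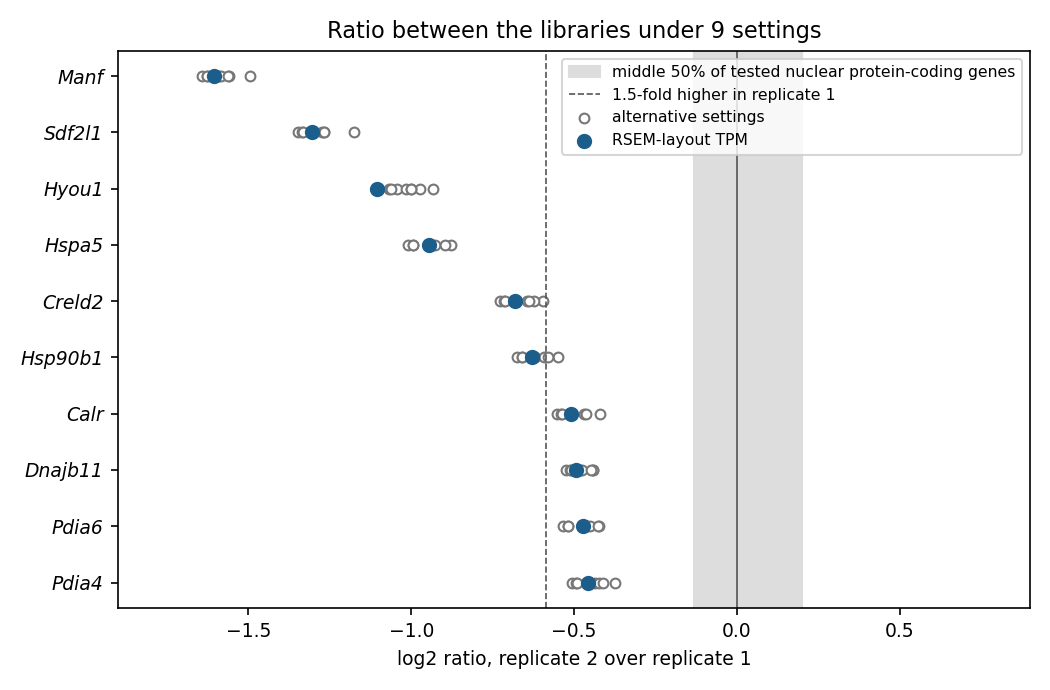
Log2 ratio of replicate 2 over replicate 1 for each of the 10 genes, with the RSEM-layout TPM as filled points and 8 alternative settings as open points. All points lie below 0 and left of the grey band from -0.13 to 0.20 that holds the middle 50% of nuclear protein-coding genes, and the dashed line marks 1.5-fold.

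Transcript shares, which the choice of genes did not use, were nearly the same in the libraries for most of the 10 genes. Of the 8 genes with several annotated transcripts, 7 had the same leading transcript in both libraries and both tables. Hsp90b1-201 held 96.1 ± 0.13% of its gene's TPM, Pdia6-201 94.4 ± 0.33% and Dnajb11-201 96.3 ± 1.95% (SD, n = 2, RSEM-layout). The entire TPM of Pdia4 was in Pdia4-201 in both tables, and Creld2 and Sdf2l1 have 1 annotated transcript each.

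For Hspa5, Calr and Manf the authors' tables divided the reads differently between the leading coding transcript and short noncoding ones. Hspa5-202 held 87.6 ± 0.81% in the RSEM-layout table and 72.6 ± 0.98% in the kallisto-layout table (SD, n = 2), where the retained-intron transcript Hspa5-203 held 22.5% and 23.7% in replicates 1 and 2. The RSEM-layout table gave that transcript 0.50% and 0.23%, and gave 9.57% and 11.2% to Hspa5-204, a transcript annotated for nonsense-mediated decay that was listed at 0 in the kallisto-layout table. Calr-201 went from 96.95 ± 0.52% to 74.7 ± 1.19% between the tables, with the retained-intron transcript Calr-204 at 23.5% and 24.6% in the kallisto-layout table. Manf was divided the other way, with 59.3 ± 2.33% for Manf-201 in the RSEM-layout table and 95.0 ± 0.60% in the kallisto-layout table, and with the retained-intron transcript Manf-205 at 38.4% and 36.1% against 1.83% and 0.57%. In these 3 genes the share of the leading transcript differed more between the tables than between the libraries.

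The leading coding transcripts of Hspa5 and Manf, taken alone, were higher in replicate 1. They hold most of their gene's TPM, on which the genes were chosen, so their direction adds no support. In the RSEM-layout table Hspa5-202 had 371 TPM in replicate 1 against 190 TPM in replicate 2, and in the kallisto-layout table it had 367 and 196 TPM, so the tables were closer for this transcript than for the whole gene. Manf-201 had 68.5 and 23.7 TPM in the RSEM-layout table and 103 and 36.8 TPM in the kallisto-layout table. The same limit holds for the leading transcripts of Hsp90b1, Calr, Pdia6 and Dnajb11, which were higher in replicate 1 in both tables. Hyou1-201 was not, with 14.98 and 7.15 TPM in the RSEM-layout table but 9.93 and 10.2 TPM in the kallisto-layout table.

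Hyou1 was the exception in its transcripts. Its TPM lay mostly in 3 coding transcripts, and Hyou1-201 held 38.3% and 39.5% in replicates 1 and 2 of the RSEM-layout table but 24.9% and 50.3% in the kallisto-layout table. Hyou1-206 held 27.5% and 36.1% in the RSEM-layout table and 39.5% and 22.7% in the kallisto-layout table, so the direction of its difference between the libraries depended on the table. The short coding transcript Hyou1-209 had 47.0 counts in replicate 1 and 0 in replicate 2 of the RSEM-layout table, and was listed at 0 in both libraries of the kallisto-layout table. Transcript shares of Hyou1 were thus not settled by these tables, while its gene level was 39.1 and 18.1 TPM in one and 39.9 and 20.3 TPM in the other.

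**Figure D4:**
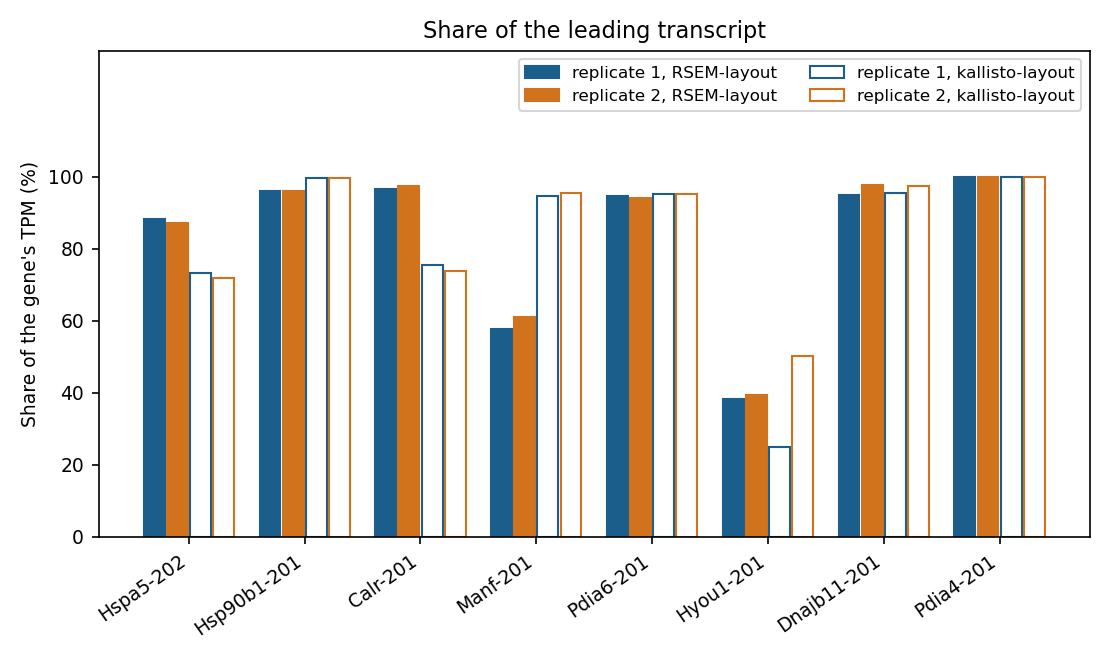
Share of the gene's TPM, in percent, held by the leading transcript of the 8 genes with several annotated transcripts, with 1 bar per library and table. The bars of replicates 1 and 2 are close except in the kallisto-layout table for Hyou1-201, at 24.9% and 50.3%, and the tables differ for Hspa5-202, Calr-201 and Manf-201.

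Reads of most of these genes had no near-identical source. For 7 of the 10 leading transcripts, 0 of the words of 31 bases occurred in an annotated transcript of another gene. Hsp90b1-201 shared 5.04% of its words, mainly with the miRNA gene Gm25745 inside it, Calr-201 shared 2.60% with the pseudogene Calr-ps, and Sdf2l1-201 shared 0.649% with transcripts that include those of Eif2b1. Gm25745 and Calr-ps were listed at 0 TPM in both libraries. The annotated span of Manf, which includes long introns, overlaps Rbm15b on the same strand (6.23 and 5.22 TPM) and Dcaf1 on the opposite one (13.8 and 10.3 TPM), and how the counting used strand is not given in the sources used here.

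Most other genes of ER protein folding differed less between the libraries. Among 33 other ER chaperones and foldases the median log2 ratio was -0.077 (-0.0014 in the kallisto-layout table). Of the 33, 22 were below 0, beside 5711 of all 12510 genes tested. In each direction 1 passed 1.5-fold, beside 3.34% of all genes higher in replicate 1 and 7.41% higher in replicate 2. The gene higher in replicate 1 was Pdia3, a disulfide isomerase for glycoproteins, with 67.7 and 43.9 TPM and a log2 ratio of -0.62, which lies within the range of the 10 genes. It did not pass 1.5-fold in the kallisto-layout table or with TPM rescaled over nuclear protein-coding genes. The gene higher in replicate 2 was Fkbp11, a prolyl isomerase, at 1.95 and 3.06 TPM, which passed in 4 of the 9 settings. In the kallisto-layout table Fkbp11 did not pass, at a log2 ratio of 0.47, and Fkbp7 did, at 0.61.

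Close relatives of 4 of the 10 genes had log2 ratios between -0.26 and -0.01 in the RSEM-layout table. They were named after their values were seen. Their ratios were nearer 0 than those of the 10 genes, which were chosen for being higher in replicate 1. Pdia3, a disulfide isomerase like Pdia4 and Pdia6, was further from 0 than both, at -0.62. Canx, the membrane-bound relative of calreticulin, had 145 TPM in replicate 1 against 121 TPM in replicate 2 (log2 ratio -0.26), and Sdf2, the relative of Sdf2l1, had 21.9 and 21.7 TPM. Cdnf, the relative of Manf, had 13.95 and 11.8 TPM, and Creld1, the relative of Creld2, had 23.3 and 21.7 TPM. P4hb, the archetypal disulfide isomerase, had 90.5 and 89.4 TPM, and Serpinh1, the collagen chaperone, had 85.8 and 77.8 TPM. Of the BiP partners, Dnajc3 had 16.3 and 12.0 TPM (log2 ratio -0.44), Dnajb9 had 21.5 and 16.9 TPM (-0.35), and Sil1, an exchange factor for BiP, had 7.62 and 6.43 TPM in the RSEM-layout table but 13.5 and 16.004 TPM in the kallisto-layout table.

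Sensors and transcription factors of the unfolded protein response had a median of -0.065 over 17 tested genes of 18. Of the 17, 0 were past 1.5-fold in either direction, beside 3.34% of all genes higher in replicate 1 and 7.41% higher in replicate 2. Ern1 was at 4.65 and 4.84 TPM, Eif2ak3 at 3.15 and 2.93 TPM, and Atf6 at 29.6 and 25.7 TPM (log2 ratio -0.20). Xbp1 had the lowest ratio of the list, -0.58, with 40.02 TPM from 2131 counts in replicate 1 and 26.7 TPM from 1460 in replicate 2, and it lay past 1.5-fold in 4 of the 9 settings, those that scale counts. The shortest intron of its 4 annotated transcripts was 300 nt, so the IRE1-spliced form, which lacks a much shorter stretch, is not read from these tables. Ddit3, the stress-induced factor CHOP, had 12.35 and 8.56 TPM (-0.52), while Atf4 had 36.6 and 34.98 TPM (-0.07) and Tmbim6, an ER membrane protein, 94.7 and 99.5 TPM.

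ER-associated degradation removes misfolded proteins. Its median was 0.075 over 25 tested genes of 26, beside 0.023 over all genes, and was -0.012 with TMM scaling. Of the 25, 9 were below 0 in the RSEM-layout table, beside 5711 of all 12510 genes tested. Beside 3.34% and 7.41% of all genes, 0 of the 25 passed 1.5-fold higher in replicate 1 and 1 passed it higher in replicate 2. That gene was Edem1, a mannosidase-like protein, at 4.49 and 7.26 TPM, with a log2 ratio of 0.68 that was 0.27 in the kallisto-layout table. Herpud1, a membrane component of the degradation complex, had 81.8 and 107 TPM (log2 ratio 0.39), the opposite direction to the 10 genes, and Vcp, the ATPase that pulls substrates out, had 95.2 and 106 TPM. Syvn1, the ubiquitin ligase of the pathway, had 11.2 and 8.30 TPM (-0.43), and Selenos 17.7 and 13.8 TPM (-0.35).

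Of 27 genes known as targets of ATF4 in the PERK branch 23 were tested, with a median of 0.12. None of them passed 1.5-fold toward replicate 1 in the RSEM-layout table and 5 passed it toward replicate 2, beside 3.34% and 7.41% of all genes. Cebpb, a transcription factor, had 18.3 TPM in replicate 1 against 62.1 TPM in replicate 2, Ddit4, an inhibitor of mTORC1, 32.5 and 73.9 TPM, and Chac1, which degrades glutathione, 0.95 and 2.72 TPM, and each was past 1.5-fold in all 9 settings. Psat1, at 0.87 and 1.43 TPM, and Nupr1, at 2.02 and 3.12 TPM, were past it in 7 and 4 of the 9 settings. The kallisto-layout table had 6 genes higher in replicate 2, beside 10.4% of all genes, and 1, Mthfd2, higher in replicate 1, with a log2 ratio of -0.82 there at 1.73 and 0.93 TPM. Several genes of the list also respond to other signals, so its name is no evidence of the branch. Atf5 was at 30.2 and 23.4 TPM and Wars at 13.2 and 11.3 TPM.

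The remaining lists are given beside 3.34% of all genes 1.5-fold or more higher in replicate 1 and 7.41% higher in replicate 2. Of all 12510 genes tested, 5711 had a log2 ratio below 0. Of 26 genes of the translocon and N-glycosylation 0 passed in either direction (median -0.049, 19 below 0), and 1, Tusc3, was higher in replicate 2 in the kallisto-layout table with a log2 ratio of 0.61. Lowest in ratio were the signal peptidase subunit Spcs3 at 25.2 and 17.4 TPM and Magt1 at 21.3 and 14.8 TPM. Of 20 genes of COPII transport and KDEL retrieval, which carries escaped chaperones back to the ER, 0 passed (median -0.12, 16 below 0). The KDEL receptors Kdelr1, Kdelr2 and Kdelr3 had 49.9 and 48.8, 19.9 and 18.9, and 1.75 and 1.27 TPM. Of 16 cytosolic and mitochondrial chaperones 2 were higher in replicate 2, Hspa1a at 3.75 and 6.81 TPM and Hspa1b at 3.12 and 6.02 TPM, near-identical copies between which reads can be split. Cryab, at 1360 and 1356 TPM, Hspa8, at 651 and 678 TPM, and Hsp90ab1, at 505.0 and 527 TPM, differed little.

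**Figure D5:**
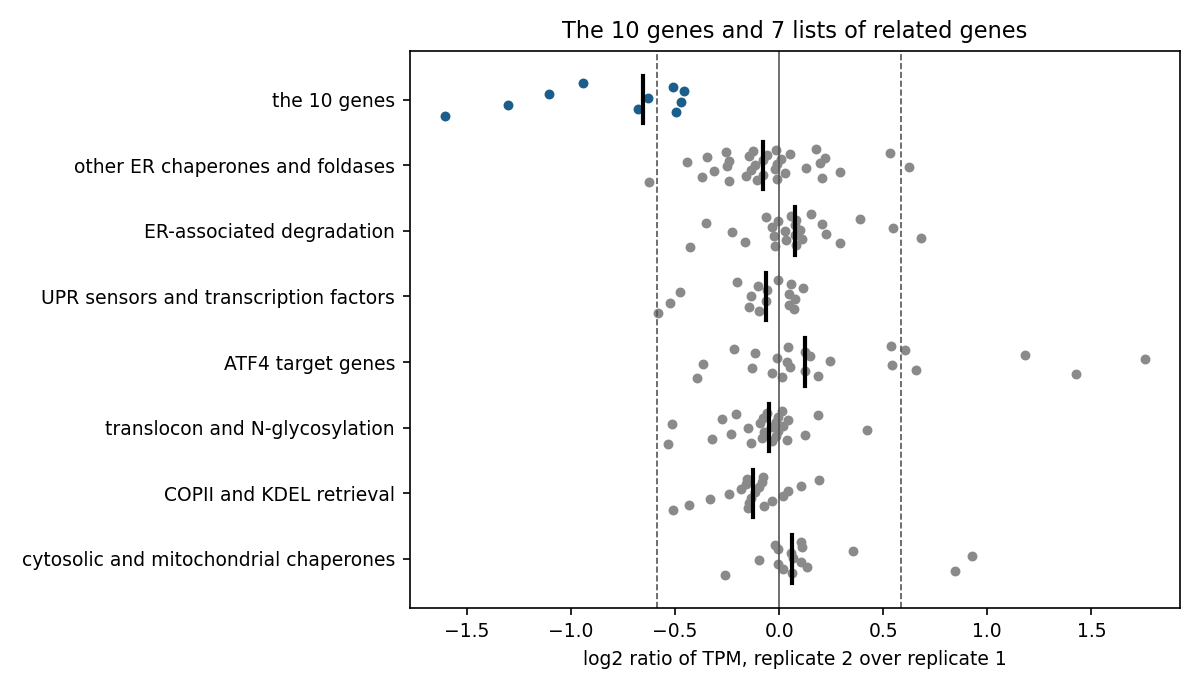
Log2 ratio of TPM, replicate 2 over replicate 1, for the 10 genes in blue and for the tested genes of 7 related lists in grey, with black bars at the medians and dashed lines at 1.5-fold. The 10 genes have a median of -0.65 and the list medians lie between -0.12 and 0.12.

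The other expressed genes with an ERSE were also compared, as a list defined by promoter sequence that shares genes with the ER lists above. They were 9 genes, namely Canx, Acacb, Hnrnpa3, Dnajc3, Syvn1, Alg12, Spats2l, Pan2 and Adcy3, and the element of Alg12 is the same stretch as that of its neighbour Creld2. Their median log2 ratio was -0.22 (-0.21 in the kallisto-layout table), 6 of the 9 were below 0, and 0 passed 1.5-fold in either direction in the RSEM-layout table. Adcy3, at 1.39 and 2.04 TPM, passed it toward replicate 2 in the kallisto-layout table with a log2 ratio of 1.19. The tested genes whose windows held no ERSE, 8869 identifiers with 8862 symbols and without the 10 genes, had a median of 0.023, with 2.28% of them 1.5-fold or more higher in replicate 1 and 6.11% higher in replicate 2. The 6 ERSE genes below 0 were Canx, Dnajc3, Syvn1, Alg12, Hnrnpa3 and Spats2l, with log2 ratios of -0.26, -0.44, -0.43, -0.36, -0.22 and -0.19. Those above 0 were Acacb (0.14), Pan2 (0.02) and Adcy3 (0.52). The lowest of the 9 were Alg12, which shares the element of Creld2, and Canx, Dnajc3 and Syvn1, which are in the ER lists above. The median of -0.22 thus does not separate promoter sequence from a role in the ER. Genes with an ERSE-II were compared in the same way. The 7 tested genes with it outside the 10 had a median of 0.099, and 0.098 in the kallisto-layout table. Of these 7 genes 2 were below 0, beside 4038 of 8871 without an ERSE-II, and 0 passed 1.5-fold in either direction in the RSEM-layout table. Both lists are small, and the part of either element in the difference between the libraries was not tested.

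Genes with a similar pair of ratios in the RSEM-layout and kallisto-layout tables were looked for among 2883 protein-coding genes with a mean of 20 TPM or more in both. The 6 nearest to the median pair of the 10 genes were Sh3kbp1, Pdia3, Dlc1, Ets2, Myadml2 and Alas1, at distances from 0.016 to 0.091 in log2 units. Pdia3 was the only ER chaperone among them, and Alas1, the first enzyme of haem synthesis, was the most abundant with 222 and 134 TPM. By the larger of its ratios in the tables, Manf was 3 in order from the lowest, after Rrad, a regulator of calcium channels (114 and 34.5 TPM), and Nppb, the B-type natriuretic peptide (212 and 66.2 TPM). Among the genes that followed were G0s2, Alas2, Hbb-bt, Cited4, Hba-a2 and Hba-a1, of which Alas2 and the globins belong to red blood cells. Hyou1 was 13 and Hspa5 16 in this order. The likeness is measured over 2 libraries only.

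Other differences between the libraries ran alongside those of the 10 genes. Replicate 1 held 35897521 expected counts and replicate 2 held 36926429, of which 0.492% and 0.515% fell on ERCC spike-ins. All 8 cardiomyocyte markers were present, with 41942 and 40076 TPM in sum, and 0 of the 8 passed 1.5-fold. All 5 erythroid markers were higher in replicate 1 (23409 and 11150 TPM in sum). Higher in replicate 2 were 4 of 4 atrial markers (441 and 1066 TPM), 6 of 6 tested markers of B and plasma cells (8.01 and 119 TPM over all 7), 5 of 6 of adipocytes (246 and 600 TPM), and 5 of 5 of airway (0.99 and 282 TPM), of which Bpifa1, Scgb1a1 and Scgb3a2 were listed at 0 in replicate 1. Of 5 endothelial markers Kdr was higher in replicate 1 (32.7 and 18.9 TPM), of 5 fibroblast markers 1 was higher in replicate 2, and 0 of 5 macrophage and 0 of 4 smooth muscle markers passed 1.5-fold. The part of these differences in the levels of the 10 genes was not tested.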

How the data were processed

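For each library the authors' gene table and 2 transcript tables were used, which per the deposited readme refer to mm10 and GENCODE M21; program names and versions are not given in the sources used, and the tables are named by their column layouts. Per the file headers, the deposited values are expected counts (RSEM layout) and estimated counts (kallisto layout) per feature, TPM scaled by the authors over all rows, and isoform percent. Depths were 35897521 and 36926429 expected counts, which limits the precision of low genes.

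Kallisto-layout TPM were summed per gene. Ratios are log2(TPM + 0.1), replicate 2 over 1, where the mean TPM was 1 or more, with 1.5-fold as the line; a pseudocount understates the change of low genes. With 1 group there was no test. Intervals are exact (Clopper-Pearson, 95%) on CPM, counts scaled to library totals, and the code was tested on simulated data. Counts were rounded to whole numbers only for TMM factors (edgeR 4.0.16) and size factors (DESeq2 1.42.0), run in R 4.3.3; the remaining steps used Python 3.11.15. Alternatives were the kallisto-layout table, posterior mean TPM, a pseudocount of 1, other scalings, other filters and a 2-fold line.

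The members and lists were chosen with earlier results of these data known. Genes named from each list were the 3 with the highest mean TPM, the 2 lowest and the 1 highest ratio at a mean of 5 TPM or more, beside genes whose role is needed; Fkbp11, Chac1, Psat1, Nupr1, Mthfd2, Fkbp7, Hspa1b, the relatives of the 10 genes and the genes with an ERSE were named after their values were seen. A gene that the rule for likeness named is not reported here. Promoters came from the RefSeq table (GRCm38.p6) by symbol and were searched on both strands.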

Additional observations from a re-analysis of the deposited data

How the results depend on the processing

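All 10 genes kept a log2 ratio below 0 under the 8 alternatives to the RSEM-layout TPM that were run, and their median ranged from -0.70 with TMM scaling to -0.57 in the kallisto-layout table. The alternatives use the same reads of genes chosen for this direction. At 1.5-fold, 6 of the 10 genes were higher in replicate 1, and 5 in the kallisto-layout table and with TPM rescaled over nuclear protein-coding genes. The count was 4 with a filter at a mean of 10 TPM, which Sdf2l1 and Creld2 did not pass. With a line of 2-fold it was 3, and 2 in the kallisto-layout table. Scaling moved the median of all tested genes between -0.025 (TMM) and 0.078 (kallisto-layout table, at the same genes). Of 80 recomputed log2 ratios of the 10 genes 15 moved by more than the distance from the middle of the counting interval, in log2 units, to its ends, and 0 reversed. In the related lists, the count of genes higher in replicate 1 went from 1 to 0 for other ER chaperones in the kallisto-layout table and with rescaled TPM, and from 0 to 1 for the sensors and transcription factors under 4 scalings of counts. With the kallisto-layout table or the posterior mean TPM, 19 of 20 mean levels stayed within 1 SD of the libraries, the exception being Calr at 178 TPM in the kallisto-layout table. Leaving out a library leaves the other one's level, given for each gene above. Of 8 shares of leading transcripts 6 moved by more than 1 SD in the kallisto-layout table, those of Hspa5, Hsp90b1, Calr, Manf, Pdia6 and Hyou1. Depth limited Sdf2l1 and Creld2 most, with 377 and 159, and 434 and 284, counts. No paired analysis was possible because the labels give 1 group.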
